A study of Homo sapiens with 6 samples.

Results

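The 10 genes described here are the main cyclins of the cell division cycle and 2 of the kinases that cyclins switch on. They were the D-type cyclin genes CCND1, CCND2 and CCND3, the E-type genes CCNE1 and CCNE2, the A-type gene CCNA2, the B-type genes CCNB1 and CCNB2, and the kinase genes CDK1 and CDK2. Each was found by its symbol among the 35268 named genes of the table, and each passed the filter of a mean normalized count of at least 10, as did 13930 genes in all. Expression was measured by mRNA sequencing of Rh30, an established cell line from a fusion-positive rhabdomyosarcoma. There were 3 libraries of cells given a small molecule at 1 µM in DMSO, whose columns are headed YK, and 3 libraries of cells given DMSO alone, each for 24 hours. The drug is known as an inhibitor of ETS family factors and was used here to ask how it alters gene expression in cells that depend on the PAX3-FOXO1 fusion protein. The labels name 1 cell line, 1 dose and 1 time point and do not say whether replicates were separate cultures, so p-values measure the spread between these libraries, which may be technical.

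A cyclin is a protein whose level rises and falls through the cell cycle and whose binding turns on a cyclin-dependent kinase (CDK). D-type cyclins answer growth signals and, with CDK4 and CDK6, begin the phosphorylation of the retinoblastoma protein in G1. E-type cyclins with CDK2 drive the step into DNA replication, cyclin A2 works with CDK2 in S phase and with CDK1 later, and B-type cyclins with CDK1 drive mitosis. Transcription of the E-type genes is tied to E2F factors, while CCNA2, CCNB1, CCNB2 and CDK1 are classic genes that the DREAM complex represses in resting cells and that the B-MYB and FOXM1 factors switch on towards mitosis. In rhabdomyosarcoma, as in normal muscle precursors, division and muscle differentiation are opposed states.

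The libraries held between 16724650 and 24677433 reads on named genes. DMSO replicate 1 stood apart, with a mean correlation of 0.989 with the other libraries across genes on the log2 scale, the other 5 each having 0.992 or more, and with 6.05% of its signal on 13 mitochondrial genes against 4.74% to 5.03% elsewhere. The muscle regulators MYOD1 and MYOG, the intermediate filament gene DES, CHRNA1, CDH15 and MYMK passed the filter, whereas MYF5 had 0 in 5 of the 6 libraries. The muscle list also held MYCN, a proto-oncogene not specific to muscle, which passed the filter and is included in the muscle sums and counts. The summed muscle markers ran from 74184 to 87718 normalized counts with DMSO and from 82056 to 85845 with the drug. Of the 7 markers tested 0 were called in limma and 3 had an unadjusted p under 0.05, all higher in every drug-treated library than in any with DMSO. Over all genes tested 18.7% had an unadjusted p under 0.05 and 10.9% lay higher in every drug-treated library. These were MYOG, at 11115, 15556 and 14759 and then 15984, 16587 and 15558 normalized counts (log2 fold change 0.23, limma adjusted p = 0.224), DES (0.14, adjusted p = 0.255) and MYMK, a gene of myoblast fusion (0.76, adjusted p = 0.0573). Of the 7 markers 4 had a log2 fold change above 0 and 3 below it, with a median of 0.05, the value of MYCN. The 3 below 0 were MYOD1 (-0.01), CHRNA1 (-0.02) and CDH15 (-0.03). Of 5 leukocyte markers, 1 passed the filter, with sums of 3.78 to 14.0 and 16.0 to 24.0 in DMSO and drug-treated libraries. Of 4 endothelial markers, 3 passed it (40.9 to 53.0 and 52.2 to 64.0), and of 5 epithelial markers, 1 did (50.9 to 68.1 and 59.8 to 90.0). PTPRC, KRT5 and CDH1 lay at 0 in at least 5 of the 6 libraries. The part of these differences in the results was not tested.

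After drug treatment the E-type cyclin genes CCNE1 and CCNE2, the A-type gene CCNA2 and the kinase genes CDK1 and CDK2 fell (limma with Benjamini-Hochberg adjustment over the 13930 genes, adjusted p under 0.05). The largest of these was CCNE2, which fell by 30.7%, and the smallest was CCNE1, which fell by 20.6%. CCND1, CCND2, CCND3, CCNB1 and CCNB2 did not pass the test. Thus 5 of the 10 genes were called lower and 0 higher, against a background of 2.15% of all genes tested called lower and 3.41% called in either direction. Of the 10 genes 9 had a log2 fold change below 0, as had 52% of all genes tested, and its median was -0.25 over the 10 genes and -0.01 over all genes tested. In 6 genes every drug-treated library lay below every DMSO library, a pattern that 15.1% of all genes tested had. These calls rested on the full set of drug-treated libraries. Without YK replicate 1, 2 or 3 the number of the 10 genes called was 0, 0 or 1, while over all genes it went from 475 to 19, 23 or 46. Without DMSO replicate 1 it was 7, with 8.46% of all genes tested called lower. It was also 7 after each library was corrected for a trend on GC content and length, an alternative chosen after the data were seen, with 6.7% of all genes tested called lower. In limma with eBayes without trend 0 of the 10 genes were called, and 33 of all genes tested. The RNA comes from mixed cells in bulk, so fewer cells in a phase of the cycle and less mRNA per cell cannot be told apart.

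**Figure D1:**
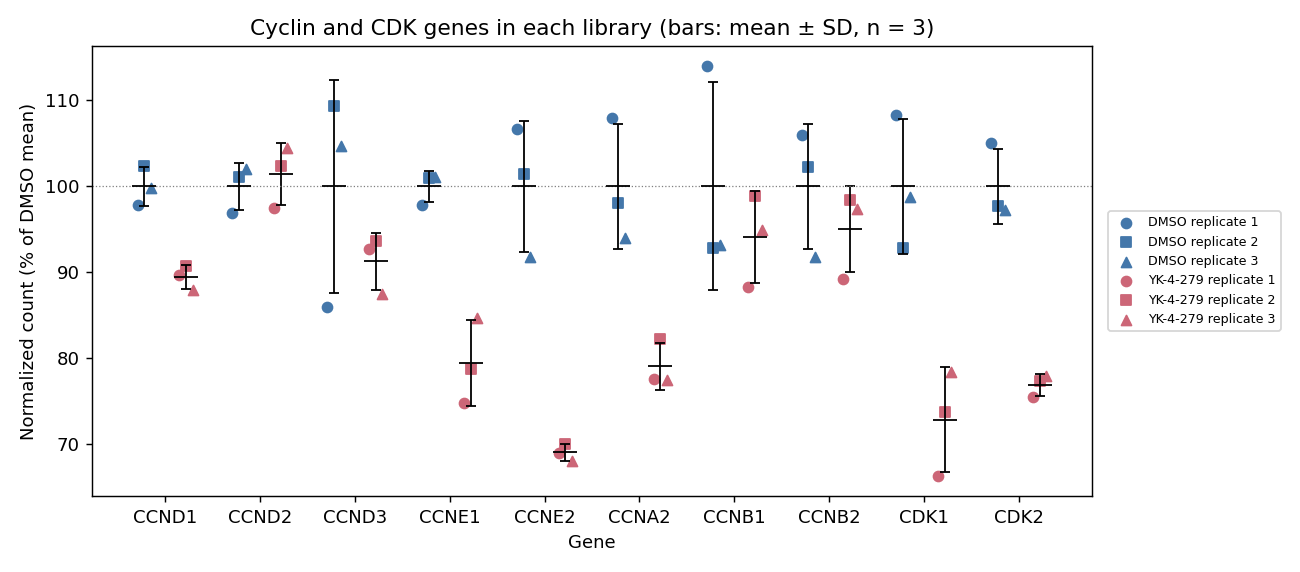
Normalized count of each cyclin and CDK gene in each library, as a percentage of its own DMSO mean (vertical axis), with genes on the horizontal axis, 1 point per library and bars for the mean and SD of 3 libraries. The drug-treated libraries of CCNE1, CCNE2, CCNA2, CDK1 and CDK2 lie apart from and below those with DMSO, those of CCND1 lie a little below, and those of CCND2, CCND3, CCNB1 and CCNB2 overlap with DMSO.

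Levels can be set side by side only per transcript length, and here the normalized count per kilobase of the canonical GENCODE transcript was used. In DMSO-treated cells CCNB1 had the highest level, 2716 ± 328 per kilobase (SD, n = 3), followed by CCND3 at 2166 ± 268, CCNB2 at 2039 ± 149 and CCNA2 at 1978 ± 143. CCND2 stood at 1768 ± 47.9 and CDK1 at 1708 ± 134, and then came CCNE1 at 689 ± 12.6, CCND1 at 680.3 ± 15.5, CDK2 at 448 ± 19.5 and CCNE2 at 137 ± 10.4. The ranges of mean ± SD overlapped between neighbours from CCNB1 to CCNA2, between CCND2 and CDK1, and between CCNE1 and CCND1, whereas CDK2 and CCNE2 stood clear. In drug-treated cells CCND2, at 1794 ± 63.9 per kilobase, stood above CCNA2, at 1565 ± 54.3, and CCND1, at 609 ± 9.46, above CCNE1, at 548 ± 34.3. These are levels over 1 chosen transcript per gene, and reads from other isoforms would change them.

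**Figure D2:**
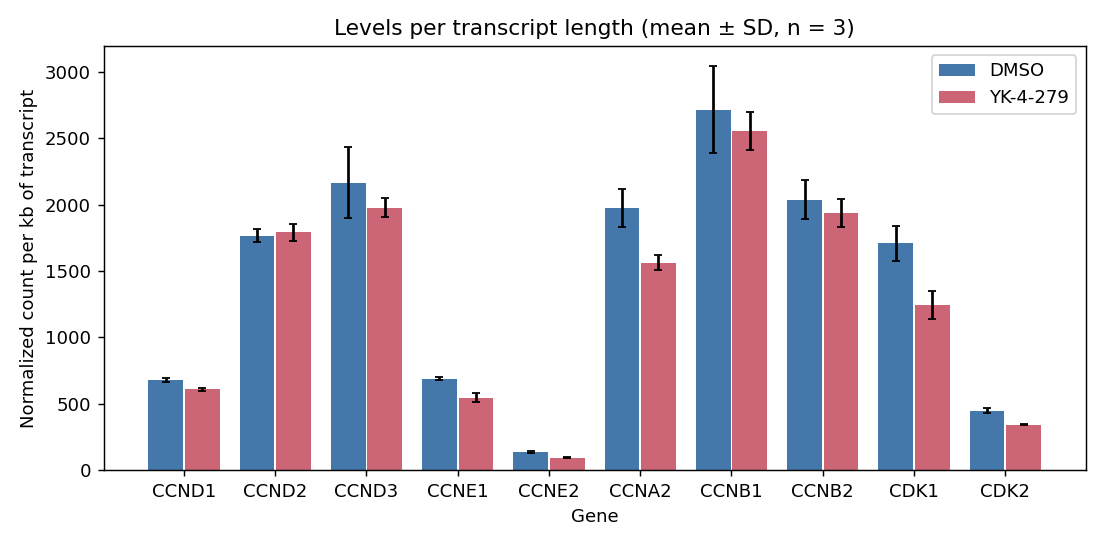
Normalized count per kilobase of canonical transcript (vertical axis) for each gene (horizontal axis), with bars for the mean of 3 libraries per group and error bars for the SD. CCNB1 is highest and CCNE2 lowest in both groups, and the levels of CCNA2 and CDK1 are lower with the drug.

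CCND1 encodes cyclin D1 and lies on chromosome 11 from 69641156 to 69654474 of hg38 (all positions are of GENCODE genes). Its normalized counts, here and below in the order of replicates 1, 2 and 3, stood at 2821, 2952 and 2877 with DMSO and at 2587, 2617 and 2537 with the drug. The groups did not overlap, but the difference was small, namely -0.16 ± 0.06 on the log2 scale (standard error from limma, 95% confidence interval -0.28 to -0.04, adjusted p = 0.142). Without DMSO replicate 1 it was -0.18 (limma adjusted p = 0.00322), within a range of adjusted p from 0.00322 to 0.405 over its 15 alternatives. CCND2, for cyclin D2, lies on chromosome 12 from 4269771 to 4305353 and was the D-type gene with the narrowest difference. Its normalized counts of 11126, 11603 and 11710 with DMSO and 11186, 11758 and 11993 with the drug were interleaved, and they differed by 0.02 on the log2 scale (limma, adjusted p = 0.877), with a 95% confidence interval from -0.10 to 0.14. CCND3, for cyclin D3, at 41934934 to 42050357 of chromosome 6, stood at 3774, 4798 and 4594 normalized counts with DMSO. With the drug it had 4069, 4111 and 3838. DMSO replicate 1 lay below all drug-treated libraries and the other DMSO libraries above them, so the groups overlapped through 1 library. Over all 6 libraries the log2 fold change was -0.12 ± 0.08 (standard error from limma, adjusted p = 0.428), and without DMSO replicate 1 it was -0.23 (limma adjusted p = 6.86e-05, with a range from 6.86e-05 to 0.769 over 15 alternatives). Per kilobase, CCND3 made up 46.8% ± 2.58 of the D-type signal in DMSO-treated and 45.1% ± 1.35 in drug-treated cells (SD, n = 3). CCND2 made up 38.4% ± 1.82 and 41.0% ± 1.47, and CCND1 14.8% ± 0.789 and 13.9% ± 0.139.

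CCNE1, for cyclin E1, lies on chromosome 19 from 29811991 to 29824312. It had 1319, 1361 and 1362 normalized counts with DMSO and 1009, 1061 and 1142 with the drug. All drug-treated libraries lay below all DMSO libraries, which had a coefficient of variation of 1.82%. The log2 fold change was -0.33 ± 0.07 (standard error from limma, adjusted p = 0.0196). CCNE2, for cyclin E2, on chromosome 8 from 94879770 to 94896678, had the lowest level per kilobase of the 10 genes. Its normalized counts stood at 392, 373 and 337 with DMSO and at 254, 258 and 250.1 with the drug, again without overlap. It also had the largest fall of the 10 genes, at -0.53 ± 0.09 on the log2 scale (standard error from limma, adjusted p = 0.0106), and 0.804% of all genes tested had a lower log2 fold change. Both E-type calls were lost without any 1 of the drug-treated libraries, where adjusted p-values of CCNE1 ran from 0.0661 to 0.165 and those of CCNE2 from 0.0758 to 0.0912 in limma. That of CCNE1 was also lost without DMSO replicate 3 (limma adjusted p = 0.0730), with a replicate block (0.0586) and with quantile normalization (0.0539), and its values ran from 6.57e-06 to 0.165 over 15 alternatives.

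CCNA2, for cyclin A2, lies on chromosome 4 from 121816444 to 121823883. It stood at 5872, 5330.0 and 5108 normalized counts with DMSO and at 4217, 4472 and 4210.1 with the drug. The highest drug-treated library was below the lowest DMSO library, and the log2 fold change was -0.34 ± 0.06 (standard error from limma, adjusted p = 0.0122). The 95% confidence interval of this change was -0.47 to -0.20. Neither B-type gene passed the test. CCNB1, for cyclin B1, at 69167135 to 69178245 of chromosome 5, had 6279, 5113 and 5137 normalized counts with DMSO and 4867, 5449.6 and 5234 with the drug. DMSO replicate 1 was the highest library and the other 5 were mixed. Its log2 fold change of -0.08 had a 95% confidence interval from -0.25 to 0.09 (limma, adjusted p = 0.607), and it was 0.01 without DMSO replicate 1. CCNB2, for cyclin B2, at 59105126 to 59125045 of chromosome 15, had 3214, 3101 and 2785 normalized counts with DMSO and 2709, 2987 and 2955 with the drug. These too overlapped, and the log2 fold change of -0.07 had an interval from -0.22 to 0.08 (limma, adjusted p = 0.611). Both intervals overlap that of CCNA2, and the difference between the B-type genes and CCNA2 was not tested. Without YK replicate 1, 2 or 3 CCNA2 had limma adjusted p-values of 0.121, 0.0776 and 0.0977, in a range from 1.69e-06 to 0.130 over 15 alternatives.

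CDK1, the kinase that drives mitosis, lies on chromosome 10 from 60778331 to 60794852. It had 3496, 2996 and 3189 normalized counts with DMSO and 2141, 2382 and 2531 with the drug. The groups did not overlap and differed by -0.46 ± 0.08 on the log2 scale (standard error from limma, adjusted p = 0.00741), and 1.26% of all genes tested had a lower log2 fold change. CDK2, the kinase of S phase entry, at 55966781 to 55972789 of chromosome 12, had 1053, 979 and 975 normalized counts with DMSO and 757, 776 and 781 with the drug. Its drug-treated libraries varied by 1.69% (coefficient of variation) and all lay well below those with DMSO, at -0.38 ± 0.07 on the log2 scale (standard error from limma, adjusted p = 0.0117). CDK1 was the 1 gene of the 10 that was still called without YK replicate 3 (limma adjusted p = 0.0384). Without YK replicate 1 or 2 it was not called (0.0912 and 0.0733), and CDK2 was not called without YK replicate 1, 2 or 3 (0.108, 0.0913 and 0.0820). Over 15 alternatives the adjusted p-values ran from 4.15e-08 to 0.115 for CDK1 and from 3.33e-05 to 0.108 for CDK2.

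**Figure D3:**
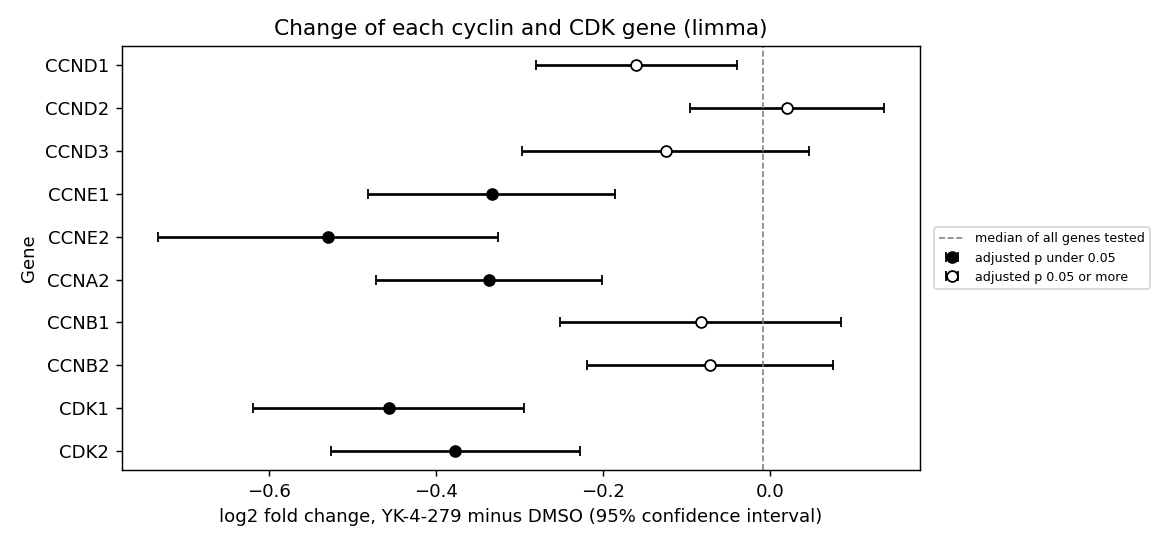
Log2 fold change of drug-treated against DMSO libraries from limma (horizontal axis, with 95% confidence intervals) for each gene (vertical axis), with 3 libraries per group, filled points for adjusted p-values under 0.05 and a dashed line for the median of all genes tested. The 5 filled points lie between -0.53 and -0.33, and the 5 open points lie between -0.16 and 0.02.

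A ratio of 2 genes within a library does not depend on a factor applied to the whole library, and 5 ratios were compared between the groups with an exact two-sided permutation test, whose smallest p with 3 libraries per group is 0.1. The log2 ratio of CCND1 to CCND2 was -1.99 ± 0.03 in DMSO-treated and -2.17 ± 0.06 in drug-treated cells (SD, n = 3). The groups did not overlap, and the exact p of 0.1 was the smallest possible (0.50 adjusted over the 5 ratios). The log2 ratio of CCNE2 to CCNE1 was -1.87 ± 0.13 and -2.07 ± 0.10 (exact p = 0.2), and that of CDK1 to CDK2 was 1.68 ± 0.06 and 1.60 ± 0.10 (exact p = 0.3). Those of CCNB1 to CCND1, at 0.93 ± 0.20 and 1.00 ± 0.08 (exact p = 0.6), and of CCNB1 to CCNB2, at 0.86 ± 0.12 and 0.85 ± 0.02 (exact p = 0.9), overlapped widely. With this test none of the 5 could reach a p under 0.05, so these p-values do not show that the ratios were alike. A further 3 ratios were chosen after the values were seen and are given with no test. The log2 ratio of CCNA2 to CCNB1 was -0.10, 0.06 and -0.01 with DMSO and -0.21, -0.29 and -0.31 with the drug. That of CCNA2 to CCNB2 was 0.87, 0.78 and 0.87 with DMSO and 0.64, 0.58 and 0.51 with the drug, and that of CDK1 to CCNB1 was -0.84, -0.77 and -0.69 with DMSO and -1.18, -1.19 and -1.05 with the drug. In each of these the drug-treated libraries lay below the DMSO libraries, which restates how the ratios were chosen.

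The promoters of these genes are shown because CDK1 and CCNA2 fell while CCNB1 and CCNB2, also genes of the DREAM complex, did not pass the test. Whether the changes of these genes differed was not tested. RefSeq windows of 300 bases (250 before and 50 after the start, build GRCh38.p14) were at hand for 6 of the 10 genes, and CCND1, CCND2, CCNE2 and CDK2 had none. They were searched on both strands for the CCAAT box (CCAAT), which binds NF-Y, for the cell cycle genes homology region (TTTGAA), which binds the MuvB core of the DREAM complex, and for an E2F element (TTTCGCGC, TTTGGCGC, TTTCCCGC or TTTGCCGC), and no matches overlapped each other. Capitals mark the matches, and sequences are given 5′ to 3′ on the strand of the gene.
CCNA2 (chr4:121823834-121824133, minus strand): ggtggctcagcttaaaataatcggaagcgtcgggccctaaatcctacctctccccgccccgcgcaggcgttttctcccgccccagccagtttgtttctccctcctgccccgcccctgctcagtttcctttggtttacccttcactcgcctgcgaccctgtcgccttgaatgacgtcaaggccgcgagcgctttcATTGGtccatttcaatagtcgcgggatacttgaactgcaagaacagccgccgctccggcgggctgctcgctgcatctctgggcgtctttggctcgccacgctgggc
CCNB1 (chr5:69166900-69167199, plus strand): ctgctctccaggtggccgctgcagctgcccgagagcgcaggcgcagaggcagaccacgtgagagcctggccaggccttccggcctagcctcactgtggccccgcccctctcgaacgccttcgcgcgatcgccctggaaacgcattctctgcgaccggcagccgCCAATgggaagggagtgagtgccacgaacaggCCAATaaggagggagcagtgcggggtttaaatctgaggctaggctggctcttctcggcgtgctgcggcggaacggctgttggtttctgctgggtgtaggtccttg
CCNB2 (chr15:59104896-59105195, plus strand): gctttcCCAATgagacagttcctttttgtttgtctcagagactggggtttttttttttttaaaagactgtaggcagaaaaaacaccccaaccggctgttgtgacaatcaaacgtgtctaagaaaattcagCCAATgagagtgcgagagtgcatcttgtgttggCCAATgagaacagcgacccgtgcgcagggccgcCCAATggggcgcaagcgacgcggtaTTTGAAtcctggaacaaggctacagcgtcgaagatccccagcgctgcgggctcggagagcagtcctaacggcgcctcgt
CDK1 (chr10:60778228-60778527, plus strand): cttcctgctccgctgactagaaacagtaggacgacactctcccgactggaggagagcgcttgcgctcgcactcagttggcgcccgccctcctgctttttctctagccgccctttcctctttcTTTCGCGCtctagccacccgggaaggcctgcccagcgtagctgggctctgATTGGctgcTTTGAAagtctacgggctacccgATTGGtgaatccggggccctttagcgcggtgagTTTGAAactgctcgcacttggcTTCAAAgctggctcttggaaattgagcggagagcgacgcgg
The 6 genes had 9 windows, of which those of CDK1 overlap. A CCAAT box was present in 7 of the 9, from all of the genes but CCNE1, against 34.6% of all 35116 windows and 34.9% of those of genes tested. It began 56 bases before the start in CCNA2, 87 and 55 before it in CCNB1, 244, 120, 87 and 54 before it in CCNB2, and 78 and 46 before it in the CDK1 window shown, which is 1 of 2 windows of that gene. The letters TTTGAA were present in 3 of the 9 windows, those of CDK1 and CCNB2, against 15.2% of all windows and 10.5% of those of genes tested. They began 29 bases before the start in CCNB2, and 69 and 13 bases before it in the CDK1 window shown, with a further match 10 bases after it on the opposite strand. An E2F element was present in both overlapping windows of CDK1, as 1 site 128 bases before the start of the one shown, against 3.31% of all windows and 4.70% of those of genes tested. Thus CCAAT boxes occurred both in genes that fell and in genes that did not pass the test. These are matches of exact letters and not measured binding. A site with other letters would be missed, so a window without a match may still hold such an element.

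By their values over the 6 libraries, genes most like CDK1 among 10689 with a mean of at least 100 included RFWD3 and ZNF695, with Pearson correlations of 0.999 and 0.998 on the log2 scale. Those most like CCND1 were MYBL2, which encodes B-MYB, RFC2, a subunit of the clamp loader of DNA replication, and CHAF1B, a subunit of the chromatin assembly factor that follows replication, at 0.999, 0.997 and 0.997. The points are 6 libraries that share the difference between the groups, and these are descriptions. Of the 3 genes most like CCND1, all were called lower, by -0.32, -0.29 and -0.35 on the log2 scale (adjusted p = 0.0106, 0.0232 and 0.0236 in limma), whereas CCND1 itself was not.

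The partners and regulators of the cyclins were followed in 7 lists with 102 genes tested, of which 10 were called lower and 1 higher, against 2.15% and 1.26% of all genes tested. Among 22 regulators of cyclin gene transcription, 5 fell and 0 rose (limma adjusted p under 0.05), with a median log2 fold change of -0.18. E2F7 and E2F8, repressors of the E2F family that act in S phase, fell by 0.61 and 0.48 on the log2 scale (limma adjusted p = 0.00137 and 0.0109). E2F7 had 1933, 1599.8 and 1816 normalized counts with DMSO and 1185, 1136 and 1172 with the drug, without overlap. MYBL2 had 9803, 10866 and 10361 with DMSO and 8315, 8502 and 8043 with the drug (log2 fold change -0.32, limma adjusted p = 0.0106). The other 2 called were E2F2 and TFDP1, an activator of the E2F family and a dimer partner of E2F factors, and FOXM1 had a log2 fold change of -0.20 (limma adjusted p = 0.0672). A list of 30 genes held ubiquitin ligases of cyclins, related ligase genes and their regulators. Of these 30 genes 3 fell and 0 rose, beside the 2.15% of all genes tested that were called lower. FBXO5, the inhibitor of the anaphase-promoting complex that protects cyclins A and B, had 2033, 1637 and 1704 normalized counts with DMSO and 1109.7, 1279 and 1298 with the drug (log2 fold change -0.54, limma adjusted p = 0.00741). CCNF, which encodes an F-box protein, and UBE2C, the ubiquitin-conjugating enzyme of the anaphase-promoting complex, changed by -0.32 and -0.29 on the log2 scale (adjusted p = 0.0129 and 0.0171 in limma). SKP2, the F-box protein that led its list by mean, had a log2 fold change of -0.18 (limma adjusted p = 0.121).

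Beside 2.15% of all genes tested called lower, 2 of 5 tested phosphatases and kinases that set the phosphorylation of CDKs fell. These were WEE1, which inhibits CDK1, with 4063, 3751 and 3731 normalized counts with DMSO and 3194, 3227 and 3313 with the drug (log2 fold change -0.25, limma adjusted p = 0.0367), and CDC25A, which activates CDK2, with 2848, 2894 and 2999 and then 2414, 2547 and 2462 (log2 fold change -0.24, limma adjusted p = 0.0409). Of these calls that of CDC25A was lost with TMM scaling (limma adjusted p = 0.0521), and both were lost with quantile normalization (0.101 for WEE1 and 0.0954 for CDC25A). Over 15 alternatives the adjusted p-values ran from 0.000330 to 0.226 for WEE1 and from 3.48e-05 to 0.247 for CDC25A. CDC25B, whose mean normalized count led the list, had a log2 fold change of 0.05 (limma adjusted p = 0.682). Among 7 tested CDK inhibitor genes 1 rose and 0 fell, beside 1.26% of all genes tested called higher and 2.15% called lower. CDKN2B, which encodes the inhibitor p15 of CDK4 and CDK6, had 78.2, 90.9 and 78.5 normalized counts with DMSO and 195, 177 and 178 with the drug, a log2 fold change of 1.15 (limma adjusted p = 7.49e-04). CDKN2A, whose mean normalized count led the inhibitors, had a log2 fold change of 0.09 (limma adjusted p = 0.594). Neither kinase of the D-type cyclins passed the test in limma (0 of 2, and 0 at an unadjusted p under 0.05, against 18.7% of all genes tested), with log2 fold changes of -0.12 for CDK4 and -0.01 for CDK6. In the list of the CDK-activating kinase and the Cks subunits 0 of 5 passed in limma (3 at an unadjusted p under 0.05, with the same 18.7% over all genes), and the 3 were CKS1B, the member with the highest mean, at -0.19, CKS2 at -0.15 and, in the other direction, CDK7 at 0.22 on the log2 scale. Among 31 other cyclins and CDKs, most of them with roles outside the division cycle, 0 passed in limma, beside 3.41% of all genes tested. Of the 31, 5 had an unadjusted limma p under 0.05, beside 18.7% of all genes tested, and the median log2 fold change was 0.03. CCNI, with the highest mean there, had -0.10 (limma adjusted p = 0.423).

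The calls in these lists changed when 1 library was left out, as those of the 10 genes did, and such fits also have fewer libraries. Of the 11 genes called, 11 remained without DMSO replicate 1, where 29 of the 102 and 13.1% of all genes tested were called, and 10 and 8 remained without DMSO replicates 2 and 3. Without YK replicate 1 or 2 the genes that remained were CDKN2B and E2F7, and without YK replicate 3 they were CDKN2B, E2F7 and FBXO5. With TMM scaling 10 remained and with quantile normalization 8, with eBayes without trend CDKN2B alone, and with a replicate block 6.

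**Figure D4:**
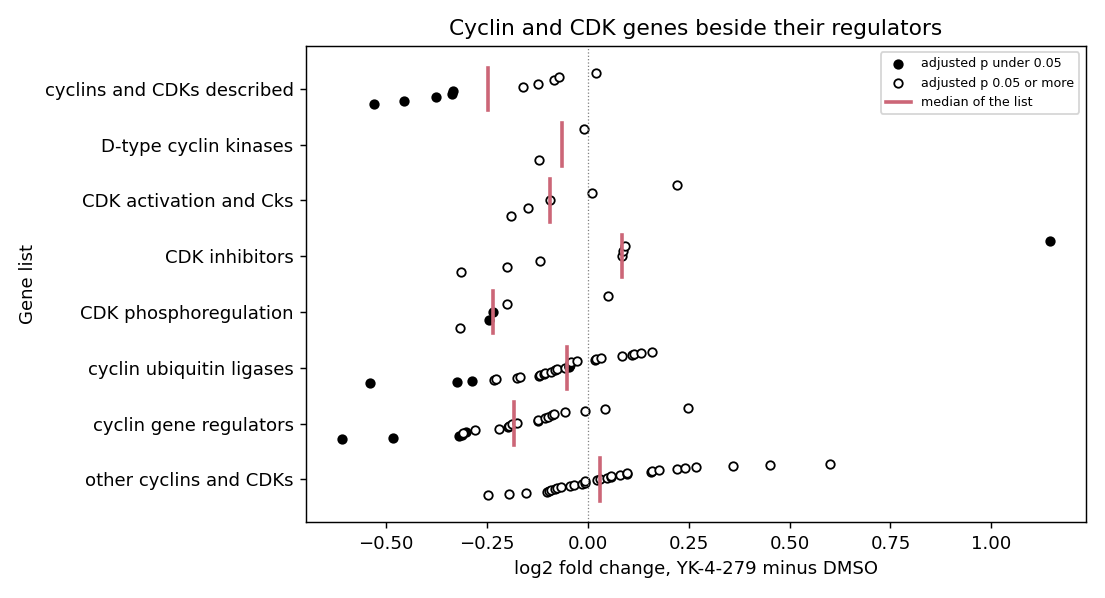
Log2 fold change from limma (horizontal axis) of each tested gene in the 10 cyclin and CDK genes and in 7 lists of partners and regulators (vertical axis), with 3 libraries per group, filled points for adjusted p-values under 0.05 and a vertical bar for each list's median. Regulators of cyclin gene transcription lie mostly below 0 with 5 filled points, other cyclins and CDKs spread around 0 with none, and CDKN2B at 1.15 stands alone on the right.

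Across the fits that left out each library in turn, the log2 fold change of CDK1 went from -0.51 to -0.39, CDK2 from -0.40 to -0.34, CCNA2 from -0.38 to -0.28, CCNE1 from -0.38 to -0.29 and CCNE2 from -0.59 to -0.48, and all stayed below 0. Of the genes not called, CCND3 went from -0.23 without DMSO replicate 1 to -0.06 without DMSO replicate 2, CCNB2 from -0.13 without DMSO replicate 3 to -0.03 without YK replicate 1, and CCND1 from -0.18 to -0.14. CCNB1 lay above 0 without DMSO replicate 1, at 0.01, and CCND2 lay just below it without DMSO replicate 1 or YK replicate 3. Transcripts of the 10 genes ran from 34.6% GC in CCNE2 and 35.4% in CDK1 to 60.0% in CCND3. After the correction for GC content and length, the log2 fold change of CCNE2 went from -0.53 to -0.42, that of CDK1 from -0.46 to -0.35 and that of CCNA2 from -0.34 to -0.27. All 3 were still called (limma adjusted p = 0.00434, 6.97e-05 and 0.000231), and CCNE1 and CDK2 were at -0.34 and -0.35.

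**Figure D5:**
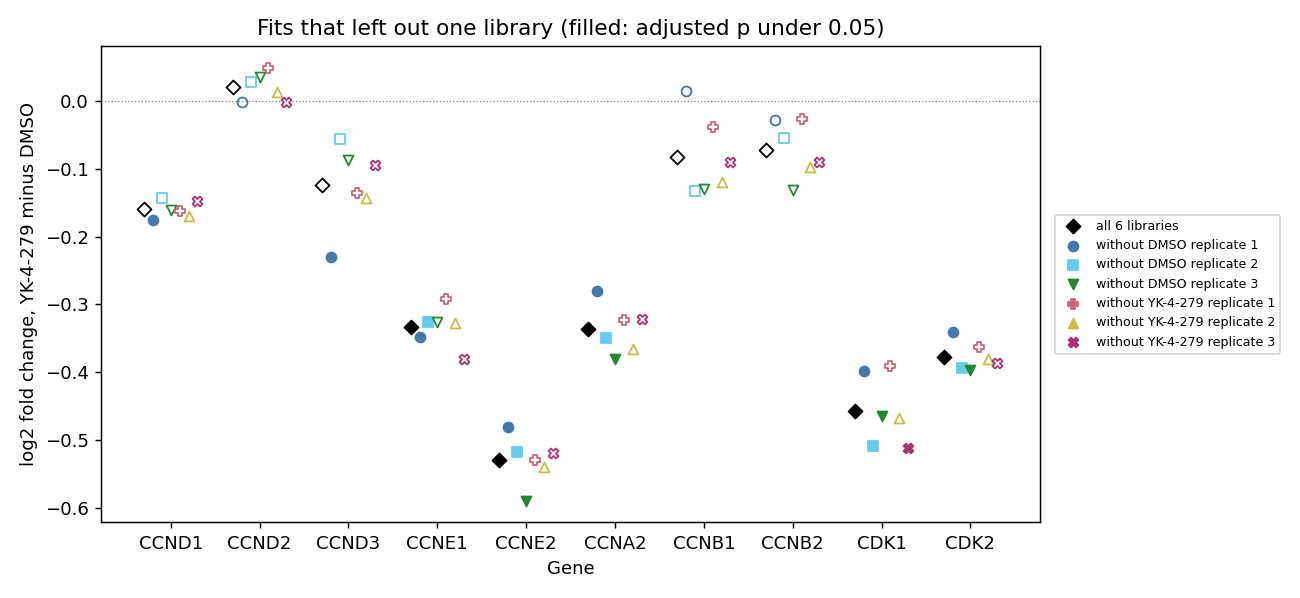
Log2 fold change from limma (vertical axis) of each gene (horizontal axis) with all 6 libraries and in the 6 fits that each left out 1 library, with filled symbols for adjusted p-values under 0.05. CCNE1, CCNE2, CCNA2, CDK1 and CDK2 stay between -0.59 and -0.28 in every fit, and the filled symbols are lost mainly where a drug-treated library was left out.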

How the data were processed

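The members of the group of genes and the lists were chosen with earlier results of these data known. After trimming by BBDuk, the authors used STAR 2.7.9a for alignment to hg38 and for counts per gene, and their processing notes name DESeq2 1.44.0. The gene annotation is not given in the sources used here. The deposited values are a normalized signal, namely reads per gene divided by a factor of each library. In each of the 6 columns 100% of values were whole multiples (tolerance 0.01) of the smallest value above 0, and read totals were computed from that step. The values were analysed as a normalized signal, and no count model was run on the reads behind them. Of 35269 rows, 1 that named no gene, holding 6 reads or fewer in each library, was left out. The library kit was directional, and the strand setting of the counts is not given in the sources used here. Reads shared with near-identical copies of a gene may have been lost.

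The groups were compared in R 4.3.3 by limma 3.58.1, with a mean-variance trend in its eBayes step, using log2(normalized count + 1) of genes with a mean of at least 10, two-sided, with Benjamini-Hochberg adjustment over all genes tested. Fold changes of low genes are understated on this scale. Exact permutation tests used scipy 1.17.1. Named genes outside the 10 were, in each list, that with the highest mean and up to 3 with the largest change among those that passed the test (adjusted p under 0.05, mean at least 100), and for CDK1 and CCND1 the 3 most correlated genes, of which 1 is not reported here. E2F2, TFDP1, FOXM1, CDK6, CDK7, CKS2 and the marker genes were named in addition after their values were seen. Alternatives were other pseudocounts (0.1 and 10), filters (none and 100) and scalings (TMM and quantile), a flat prior variance (eBayes without trend), the fits with a replicate block or without 1 library, and, chosen after the data were seen, removal of the dependence on GC content and transcript length in each library. GC content, length and positions came from GENCODE 44 on hg38, which covered 98.4% of genes tested. The code was checked on simulated reads first. Of 200 genes given a log2 change of 1, 0.5 or 0.3 there, 200, 184 and 90 were called, so small changes were often missed.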

Additional observations from a re-analysis of the deposited data

How the results depend on the processing

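Fits with edgeR and DESeq2 on the reads behind the values were not run. The number of the 10 genes called, 5, stayed within 4 to 5 with other pseudocounts, filters and scalings and with the replicate block, was 7 after removal of the trend on GC content and length, 0 with eBayes without trend, and ranged from 0 to 7 when 1 library at a time was left out (7 without DMSO replicate 1, 0 without YK replicates 1 and 2, and 1 without YK replicate 3). The number called over all genes, 475 (37.1% of them higher), was 277 with quantile normalization (47.7% higher), 33 with eBayes without trend (90.9% higher), 1620 after removal of the trend on GC content and length (43.3% higher), and between 19 and 1823 when 1 library at a time was left out. The GC content and length trend was chosen after the data were seen, and with it CCND1 and CCND3 were called too (limma adjusted p = 0.0150 and 0.0117). The replicate numbers did not pair the samples: correlations of same-numbered deviations were -0.10, -0.03 and -0.03. With the replicate block 180 genes (43.9% higher) and 4 of the 10 were called, CCNE1 being lost. Leaving out 1 library at a time, CCND2 went from -0.0020 to 0.049 on the log2 scale, below 0 without DMSO replicate 1 or YK replicate 3, and CCNB1 from -0.13 to 0.015, above 0 without DMSO replicate 1. The log2 ratio of CCNB1 to CCNB2 differed by -0.011 between the groups and went from -0.079 to 0.043, above 0 without DMSO replicates 1 or 3. The causes of these changes were not tested. CCNE2 had the lowest normalized counts of the 10 genes, and no value here ranks the genes by how far depth limits them.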
